A study of Homo sapiens with 12 samples.

Results

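The genes of 6 hepatic transcription factors, HNF4A, ONECUT1, CEBPA, PROX1, NR5A2 and NR1H4, were examined for sites of open chromatin in U2OS cells, a human osteosarcoma line that is not of liver origin. A site was a region made by merging the overlapping entries of 9 deposited ATAC-seq lists, and it was assigned to a gene when it touched the annotated gene body or the 50 kb on each side of it. The rule used the position of the genes only, and no measured value. It gave 158 sites near the 6 genes, of 399183 sites on chromosomes 1 to 22 and X. HNF4A had 33 sites, ONECUT1 25, CEBPA 11, PROX1 29, NR5A2 38 and NR1H4 22. Positions are 1-based on hg38. The reference table used holds gene spans and not exons, so sites are placed in or outside the gene body only, and the promoter table (RefSeq, GRCh38.p14) holds 5 of the 6 genes.

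ATAC-seq, in which the transposase Tn5 cuts open chromatin, was applied to 12 samples in 6 groups of 2. The FOXA2 set held U2OS cells labelled wild type and U2OS cells carrying a Flag-tagged Tet-on construct of either full-length FOXA2 or FOXA2dCTD, which lacks the C-terminal domain (CTD). The SOX2 set held a wild type whose label also names the SOX2 cell line, cells with a Tet-on SOX2 construct, and cells with a SOX2FOXA2CTD construct, a fusion of SOX2 with the FOXA2 CTD. The design asks where chromatin opens when these factors are expressed and what the CTD contributes. Per the labels, doxycycline was given for 4 days, at 500 ng/ml, to every construct sample. The treatment field of both wild types is empty while their protocol text names doxycycline, so whether they received it is not known. Whether the second wild type was parental or an uninduced line, and whether any line was a single clone, is not given either. Every gain reported here therefore compares an induced line with cells whose treatment is uncertain.

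FOXA2 is a forkhead pioneer factor of endoderm and liver, a protein that can bind its sites in closed chromatin, and SOX2 is an HMG-box factor of pluripotent and neural cells. In the liver, HNF4A, ONECUT1, CEBPA and PROX1 act with FOXA proteins in a network in which the factors bind the regulatory regions of each other's genes and of hepatocyte genes. NR5A2 and NR1H4 are nuclear receptors of the same network that control bile acid and lipid metabolism. No RNA or factor binding was used here, so the sites describe accessibility near these genes and not their expression.

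Each FOXA2-set sample had its own list of called peaks, with 19862 and 25088 peaks in the wild types, 161136 and 57946 with full-length FOXA2, and 78820 and 146854 with FOXA2dCTD. Lists were not called alike. Wild type replicate 2 and full-length replicate 2 held no mitochondrial peak and their weakest peaks stood at a −log10 p of 5.43 and 5.22, while the other 4 lists held 2 such peaks each and reached down to 3.44, 2.01, 2.01 and 2.01. Each SOX2-set group had 1 list, scored by the irreproducible discovery rate (IDR) between 2 inputs, and an entry was taken as called at an IDR of at most 0.05. This left 48142 entries in the wild type, 65628 with SOX2 and 75544 with the fusion. Read depth is unknown. Fold enrichment, −log10 p and IDR are the authors' values. A rank is the position of a site's best entry by −log10 p within its own list, with ties sharing the lowest rank, and ranks of different lists show no change.

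Labelled cell identity was compared with marker genes. The planned measure was a called peak within 1 kb of an annotated start, which 3 osteoblast or mesenchymal and 2 hepatocyte markers had. By it, 2, 0 and 2 of the former and 0, 0 and 1 of the latter were counted. These are for the FOXA2-set wild types and the SOX2-set wild type. In the construct lists the counts were 0 to 2 and 0 to 1. A looser measure counted a gene when its span plus 1 kb held a called peak. Of 7 osteoblast and mesenchymal markers (RUNX2, SP7, ALPL, COL1A1, COL1A2, TWIST1 and VIM), 4 and 1 were counted in the FOXA2-set wild types and 5 in the SOX2-set wild type. Of 5 hepatocyte markers (ALB, APOA1, APOB, TTR and SERPINA1), 0, 1 and 3 were counted in the same lists. In the 6 construct lists the counts ran from 5 to 7 of 7 and from 2 to 3 of 5. No share of all genes was set beside these counts, so they do not establish cell identity. The part of these markers in the gains near the 6 genes was not tested.

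Near the 6 genes both FOXA2 constructs gained sites and lost none. Of the 158 sites, 93 carried a peak in the FOXA2 set. Of these, 10 had a peak in either wild type and 3 in both, 10.8% and 3.23%, beside 12.2% and 4.07% over the genome. A site was called gained when both samples of a construct had a peak and neither wild type did, and lost in the opposite case. With full-length FOXA2, 14 of 93 sites were gained, which is 15.1% (exact 95% binomial interval 8.48 to 24.0%), beside 9.39% of all 265939 sites of the genome with a FOXA2-set peak. With FOXA2dCTD, 13 sites were gained, 14.0% (7.66 to 22.7%), beside 9.32% of all sites. Both intervals held the genome-wide share. The losses were a count of 0 of 93 that allows a share of up to 3.89%, beside 0.153% and 0.0553% of all sites. By this rule only the 3 sites with a peak in both wild types could be lost, so the count of 0 says little about loss. The intervals cover counting error only and treat neighbouring sites as independent, which they may not be.

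In all 4 FOXA2 construct samples and in neither wild type of that set, 6 sites were called. They were 1 site at HNF4A, 1 at NR5A2 and 4 at NR1H4, and they are the overlap of both sets of gains, 42.9% of the full-length gains and 46.2% of the FOXA2dCTD gains. Over the genome the same shares were 48.0% and 48.4%. No site was gained with full-length FOXA2 while lacking a peak in both FOXA2dCTD samples, beside 1.65% of all sites. In the other direction 2 of 93 sites, 2.15%, were gained with FOXA2dCTD and had no full-length peak, beside 2.07%. Peaks of the 2 full-length samples overlapped each other at all 14 of their gains, beside 96.9% of such gains over the genome. Those of the 2 FOXA2dCTD samples overlapped at 11 of 13 (84.6%, beside 92.8%), and at the other two they were joined into 1 site by entries of other lists. All 14 full-length gains had a peak in at least 1 FOXA2dCTD sample, 13 in replicate 2 and 7 in replicate 1, while over the genome 82.4% did. Both comparisons use the same wild types. With 2 samples against 2, an exact permutation test cannot go below a two-sided p of 0.333, so no gain or loss at a site was tested.

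These counts depended on single libraries and on how peaks were called, and so did the counts over the genome, which were 24971 gains with full-length FOXA2 and 24781 with FOXA2dCTD and are given in parentheses for each setting here. Without full-length replicate 2 the full-length gains were 49 (130592). Without FOXA2dCTD replicate 1 the FOXA2dCTD gains were 46 (113993), and without FOXA2dCTD replicate 2 they were 22 (52812). Gains with full-length FOXA2 that lacked a FOXA2dCTD peak numbered 7 (11400) without FOXA2dCTD replicate 2 and 26 (87173) without full-length replicate 2. Limited to the 19862 strongest peaks of each list, full-length FOXA2 gained 2 sites (3827) and FOXA2dCTD 2 (2928). At a common −log10 p of at least 5.43, full-length FOXA2 gained 9 (12966) and FOXA2dCTD 1 (6570). Among lists with mitochondrial peaks, with 1 library for full-length FOXA2 and the wild type, 53 sites (139273) were gained with full-length FOXA2 and 15 (32033) with FOXA2dCTD. Among lists without them, which hold no FOXA2dCTD sample, 19 (36576) were gained with full-length FOXA2.

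In the SOX2 set 47 of the 158 sites had a called entry in at least 1 list. SOX2 gained 18 of them and lost 10, which is 38.3% (24.5 to 53.6%) and 21.3% (10.7 to 35.7%), beside 33.9% and 16.9% of the 102270 sites of the genome with a called entry in that set. The fusion also gained 18 and lost 6, 38.3% (24.5 to 53.6%) and 12.8% (4.83 to 25.7%), beside 43.7% and 17.0%. Here gained means called with the construct and not in the wild type list, and lost the reverse. Both constructs shared 10 gained sites, 55.6% of each, beside 71.6% of the SOX2 gains and 55.5% of the fusion gains over the genome. All 3 lists called 9 sites. At 8 of the 18 SOX2 gains and 6 of the 18 fusion gains the wild type list held an entry above the IDR threshold, 44.4% and 33.3%, beside 37.2% and 27.9% over the genome. At a stricter IDR of at most 0.01 the gains were 8 with SOX2 and 10 with the fusion, and over the genome they fell from 34656 to 26313 and from 44687 to 29688. At equal numbers of entries they were 8 with each, and 21905 and 24877 over the genome. With 1 list per group these differences have no replicate check.

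**Figure D1:**
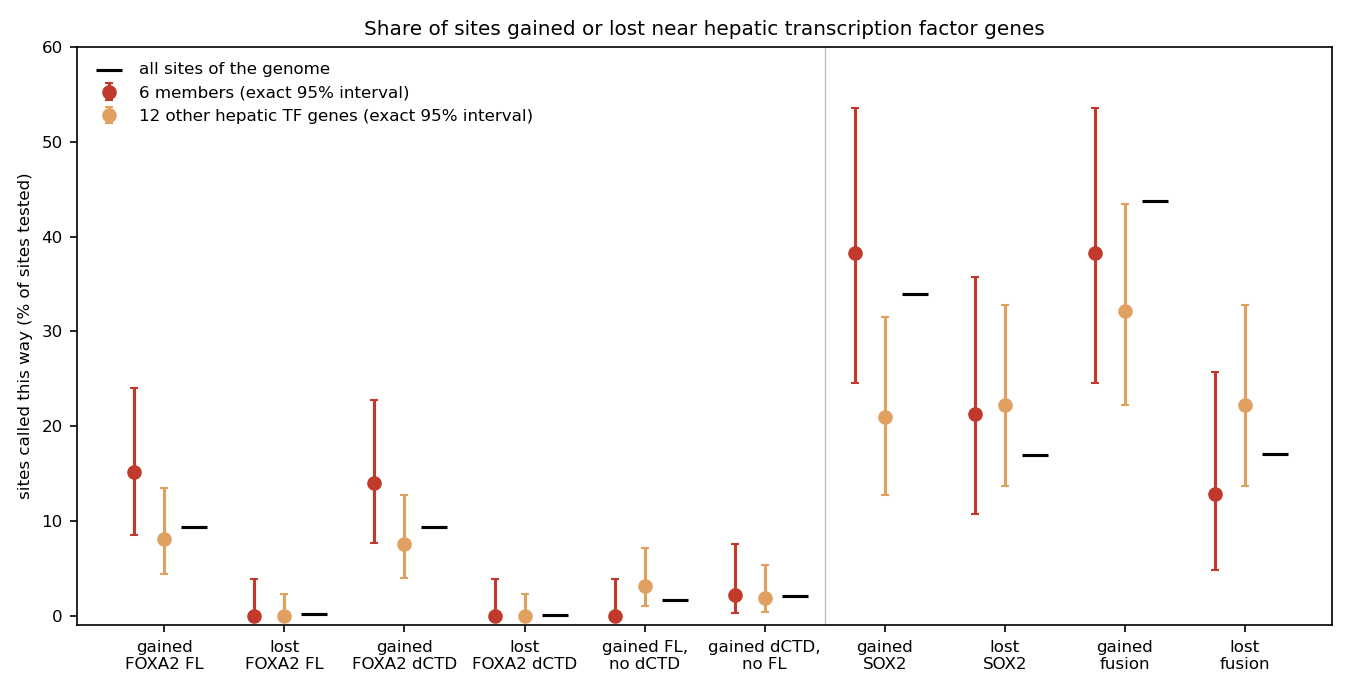
Share of tested sites (y axis, percent) called gained or lost in each comparison (x axis) near the 6 genes (red) and near 12 other hepatic transcription factor genes (orange), with exact 95% binomial intervals, and over the genome (black bars). FOXA2 gains near the 6 genes stand at 15.1% and 14.0% beside 9.39% and 9.32% for the genome, within the intervals.

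Gains of both sets were compared site by site. None of the 14 sites gained with full-length FOXA2 was gained with SOX2 or the fusion, beside 9.7% and 10.3% over the genome. Of the 14, 8 had no entry of any IDR in the SOX2 set, 57.1% beside 55.3% over the genome. A single FOXA2dCTD gain, at the ONECUT1 start, was also gained with SOX2 and the fusion, 7.69% of the 13, beside 11.5% and 13.2% over the genome. At 3 of the 14 full-length gains (21.4%, beside 20.7% over the genome) and 3 of the 13 FOXA2dCTD gains (23.1%, beside 26.7%) the SOX2-set wild type had a called entry. Conversely, 2 of the 18 SOX2 gains and 2 of the 18 fusion gains had a peak in a FOXA2-set wild type, 11.1% each, beside 8.63% and 6.64% over the genome.

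**Figure D2:**
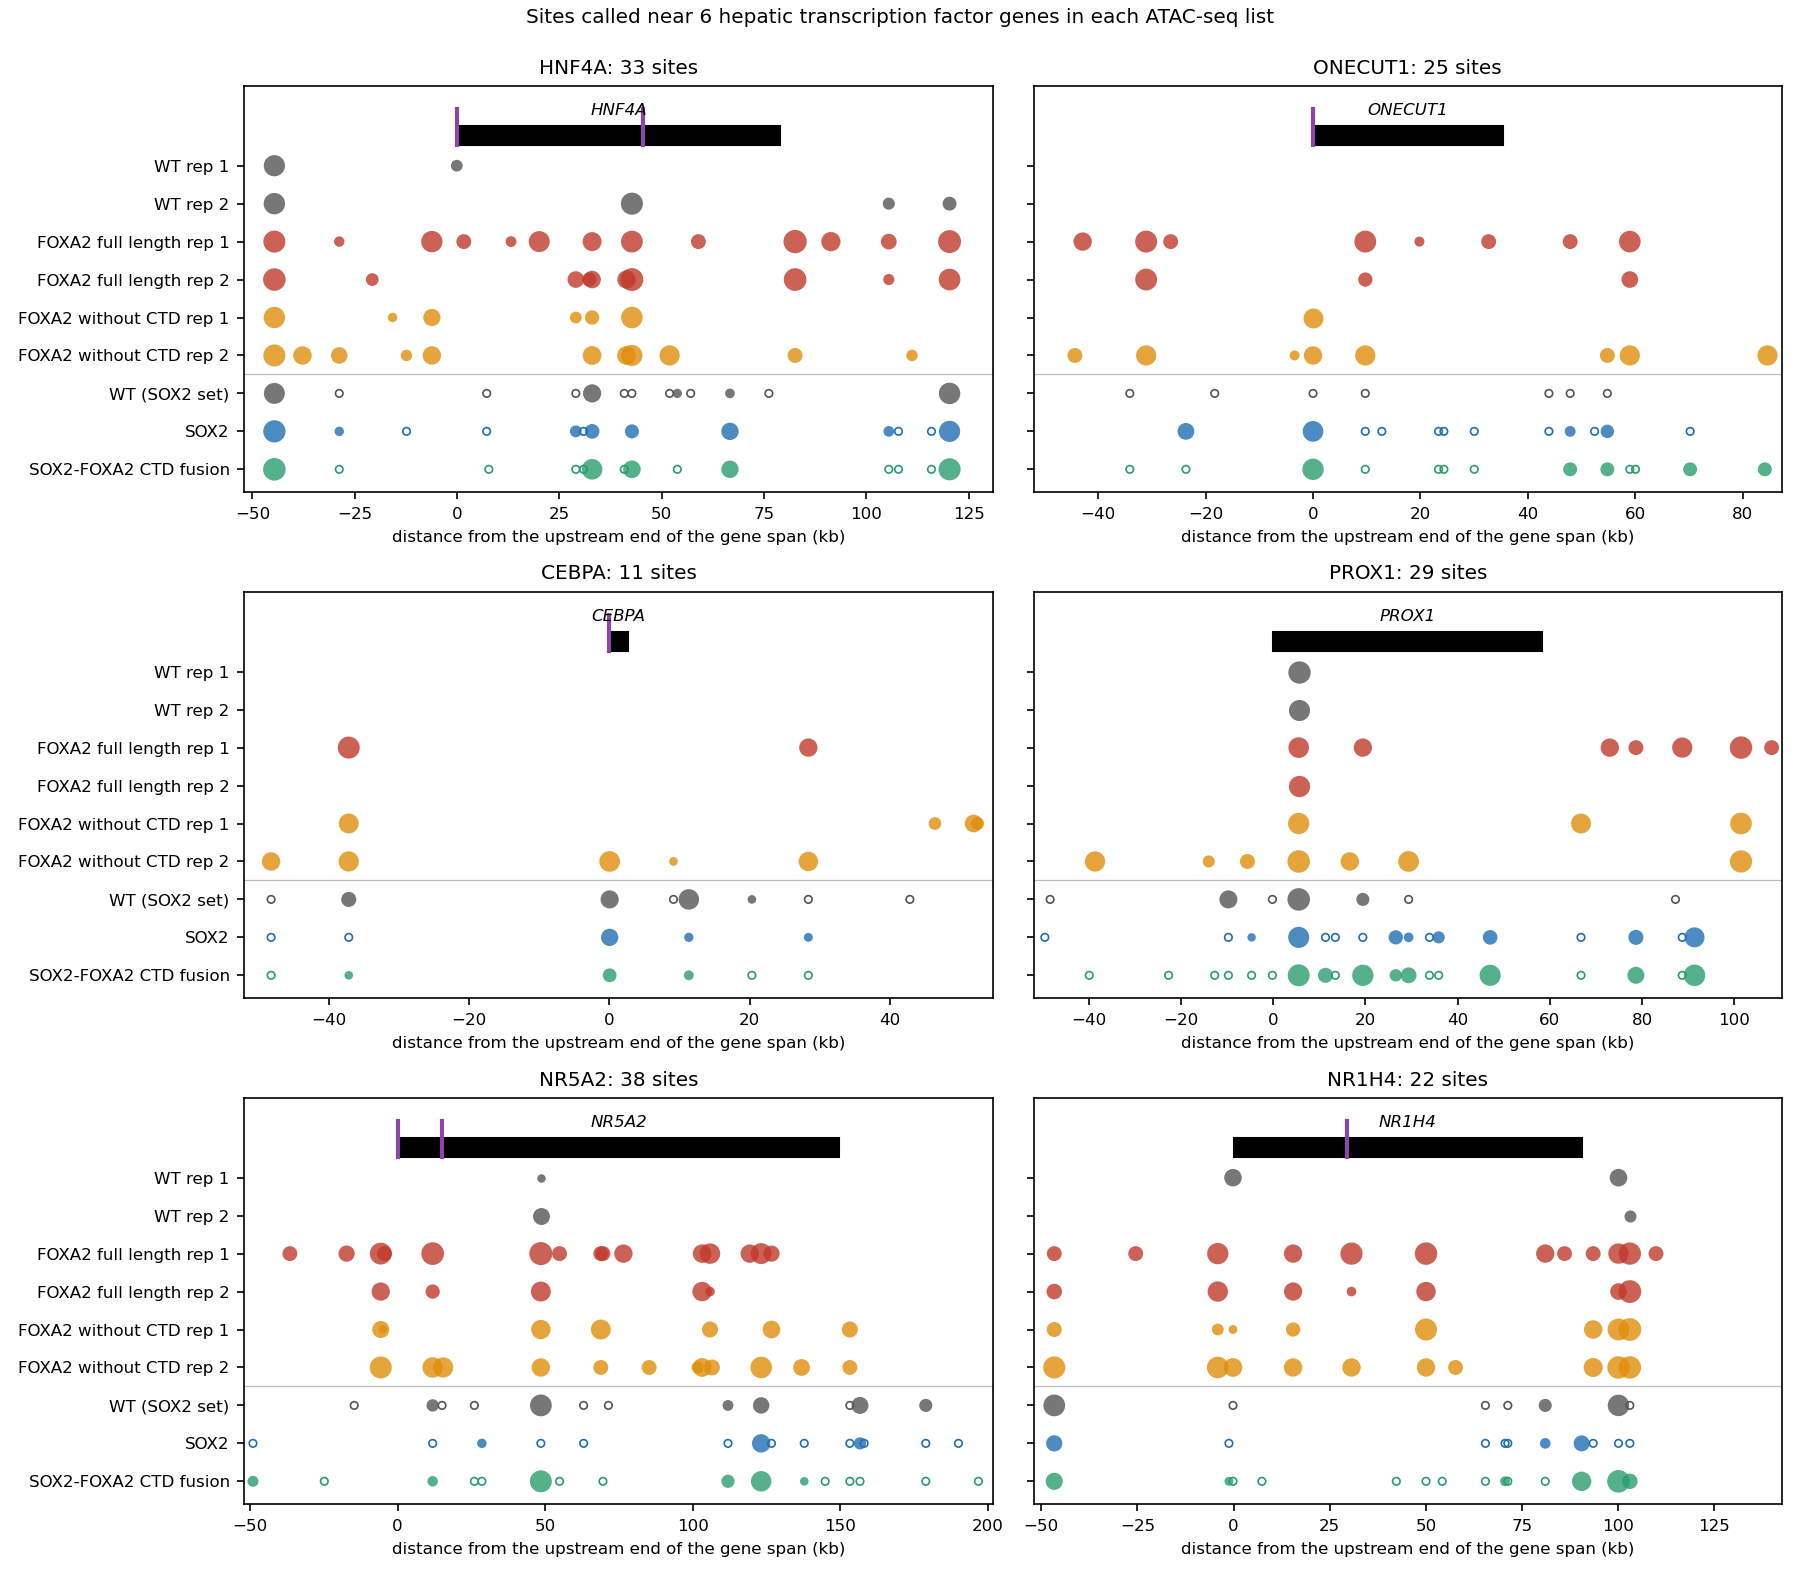
Sites by distance from the upstream end of each gene's annotated span (x axis, kb; for PROX1 its lower-coordinate end) and by list (y axis), with the gene as a black bar and annotated starts in purple. Filled points are called sites, larger where the rank is nearer the top of the list, and open points are SOX2-set entries above an IDR of 0.05; the FOXA2-set wild types show 6 and 7 sites in all, and full-length replicate 1 shows 57.

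Across all 6 windows the called sites lay near the middle of most lists. The median site stood at the top 43.1% of full-length replicate 1 and 43.6% of replicate 2, at 48.2% and 39.9% in the FOXA2dCTD replicates, and at 71.1% and 60.8% with SOX2 and the fusion. Of the 57 sites called in full-length replicate 1, 7 were within its top 10%, and 16 shared the −log10 p of 2.83 and rank 108084. The full-length gains stood at a median of 14.8% in replicate 1 and 46.4% in replicate 2, beside 21.8% and 49.1% for all full-length gains of the genome. The FOXA2dCTD gains stood at 51.2% and 39.6%, beside 42.3% and 27.9%. The SOX2 gains stood at 79.3%, beside 62.6%, and the fusion gains at 69.4%, beside 57.0%. In both full-length lists the median member gain was placed above the median gain of the genome, and in the other 4 construct lists below it.

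HNF4A, an orphan nuclear receptor and a central regulator of hepatocyte genes, was surrounded by 33 sites, of which 23 had a FOXA2-set peak, 9 a called SOX2-set entry and 8 only entries above the IDR threshold. The gene (chr20:44355699-44434596) has 2 annotated starts in the reference table, at the upstream end and within the gene body. Neither was called with any construct. At the first start, the site chr20:44355506-44355752, 247 bases wide, was called in wild type replicate 1 alone, with a fold of 4.3 and rank 16826 of 19862, and it also lies within 1 kb of a start of R3HDML-AS1. No FOXA2 construct sample had a peak there. The 250 bases before the first start follow from RefSeq (GRCh38.p14, plus strand, chr20:44355449-44355698), because they are the promoter that this wild-type site overlaps; they hold none of the motifs searched and so no capitals.
HNF4A first start: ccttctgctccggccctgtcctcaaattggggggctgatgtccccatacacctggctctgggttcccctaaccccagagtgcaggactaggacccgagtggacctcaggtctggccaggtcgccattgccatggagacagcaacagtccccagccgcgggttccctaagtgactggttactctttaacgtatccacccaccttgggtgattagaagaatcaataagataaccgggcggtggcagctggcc

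The best-ranked full-length gain lay 36.5 kb past the second start and beyond the end of the gene, at chr20:44437697-44438926. Its peak had a fold of 8.89 and rank 433 in full-length replicate 1, the top 0.269% of that list, and a fold of 12.6 and rank 3528 in replicate 2. FOXA2dCTD replicate 2 had a weak peak there, with a fold of 2.92 and rank 98055, and FOXA2dCTD replicate 1, both wild types and the SOX2 set had none. It was the best-ranked of the 158 sites in full-length replicate 1. Folds and ranks refer to their own library or list, so a difference between the constructs at this site was not tested. Among the 14 full-length gains this site was the only one still gained when each list was limited to its top 19862 peaks.

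Inside HNF4A, the site chr20:44388321-44389082, 12.2 kb before the second start, was gained with both FOXA2 constructs. Its fold was 3.44 and 6.48 with full-length FOXA2 (ranks 60833 and 28478) and 3.19 and 3.68 with FOXA2dCTD (ranks 55501 and 58156). The peaks of the 2 FOXA2dCTD samples lay 185 bases apart within the site. It was called in all 3 SOX2-set lists, at rank 21292 in that wild type, 44783 with SOX2 and 18875 with the fusion. The region thus had no peak in the wild types of one set and a called entry in that of the other. Upstream of the gene, chr20:44349235-44349858, 5.84 kb before the first start, was gained with FOXA2dCTD, with folds of 3.72 and 3.51 (ranks 40361 and 62426). Full-length replicate 1 had a peak there too, with a fold of 4.42 and rank 29816, and replicate 2 had none.

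At HNF4A some sites were also called in wild-type lists. The site chr20:44310473-44311635, 44.1 kb upstream of HNF4A and at a start of FITM2, was called in all 9 lists, with ranks 3859 and 4444 in the wild types, 19405 and 4451 with full-length FOXA2, 14081 and 17438 with FOXA2dCTD, and 10391, 6425 and 5083 in the SOX2-set wild type, SOX2 and fusion lists. The site chr20:44397981-44398871, 2.37 kb before the second start, was called in wild type replicate 2 (rank 2882) and in all 4 FOXA2 construct samples, at ranks 22843 and 2257 with full-length FOXA2 and 12986 and 30448 with FOXA2dCTD. Its SOX2-set wild type entry failed the threshold at an IDR of 0.526, so that it counted as gained with SOX2 (rank 47285) and with the fusion (rank 36708). Past the gene, chr20:44475533-44476580, at 74.3 kb, was called in wild type replicate 2 (rank 18316), both full-length samples (ranks 5701 and 8828), and the SOX2-set wild type, SOX2 and fusion lists (ranks 8242, 12946 and 8338), and in neither FOXA2dCTD sample.

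Beside 33.9% and 43.7% over the genome, SOX2 gained 4 of the 9 tested sites at HNF4A (44.4%, 13.7 to 78.8%) and the fusion 1 (11.1%, 0.281 to 48.2%). Besides the site before the second start, these were chr20:44326327-44327494, at 28.2 kb upstream, with rank 62276 with SOX2, rank 146540 in full-length replicate 1 and rank 82613 in FOXA2dCTD replicate 2. The third, chr20:44384382-44385057, 16.2 kb before the second start, had rank 55130 with SOX2, 32169 in full-length replicate 2 and 66745 in FOXA2dCTD replicate 1. The fourth, chr20:44460794-44461616, 59.6 kb past the second start, had rank 58653 with SOX2, 20827 in wild type replicate 2, and 99790 and 50774 with full-length FOXA2. All 4 stood in the lower part of the SOX2 list. At the first 3 of these 4 sites the wild type list held an entry above the threshold.

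The remaining named sites of the gene lay in its body. At chr20:44409235-44409819, 8.0 kb past the second start, the SOX2-set wild type alone had a called entry (rank 45958), which counted as lost with SOX2 and with the fusion. At chr20:44422124-44422656, 20.9 kb past the second start, all 3 SOX2-set lists had a called entry, at ranks 45197, 33060 and 37900, and no FOXA2-set sample had a peak. The other 21 sites were called in at most 2 lists, with folds between 2.57 and 6.82 where a peak was present.

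ONECUT1, a CUT-homeodomain factor of liver and pancreas, had 25 sites and no called site in any wild type list of either set. Of these sites 13 had a FOXA2-set peak and 6 a called SOX2-set entry. Its promoter was called in constructs of both sets. The 250 bases before its only annotated start follow (RefSeq, GRCh38.p14, minus strand, chr15:52790337-52790586), since 4 of the 6 construct lists had a called peak overlapping them or the bases just past the start. The 300-base promoter window has a GC content of 75.0%, beside a median of 58.7% over all 34789 promoter windows, and holds no forkhead, SOX or AP-1 motif of those searched.
ONECUT1 start: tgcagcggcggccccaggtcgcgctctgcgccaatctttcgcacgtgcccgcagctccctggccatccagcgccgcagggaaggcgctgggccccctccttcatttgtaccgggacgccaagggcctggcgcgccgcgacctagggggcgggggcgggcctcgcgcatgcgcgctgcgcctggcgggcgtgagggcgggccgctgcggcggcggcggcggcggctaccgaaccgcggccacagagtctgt

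The site over this start, chr15:52789642-52791020, which also lies at a start of LOC105370824, was called in both FOXA2dCTD samples with folds of 4.34 and 3.51 (ranks 23946 and 62426), in the SOX2 list at rank 15904 and in the fusion list at rank 13494. Neither full-length sample and neither FOXA2-set wild type had a peak there. It was 1 of the 2 sites gained with FOXA2dCTD that lacked a full-length peak, and the 1 site gained with FOXA2dCTD, SOX2 and the fusion. The FOXA2dCTD call was not of 1 replicated peak. Replicate 1 had its peak past the start, from 52789898 to 52790231, and replicate 2 before it, from 52790523 to 52791020, 291 bases away, so that neither covered the start, and the gain was lost when regions were merged over the FOXA2-set lists alone. The SOX2 and fusion entries both covered the start. The SOX2-set wild type had an entry over the start that failed at an IDR of 0.357. The −log10 p in the lower and the higher of the 2 inputs was 3.06 and 19.7 in the wild type, 18.4 and 19.8 with SOX2, and 15.8 and 18.3 with the fusion.

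Full-length FOXA2 gained 3 of 13 sites at ONECUT1 (23.1%, 5.04 to 53.8%), beside 9.39% over the genome. All 3 had a peak in FOXA2dCTD replicate 2 and none in replicate 1. The strongest, chr15:52821095-52821678, 30.8 kb upstream, had folds of 4.97 and 10.2 with full-length FOXA2 (ranks 19765 and 7889) and 4.09 in FOXA2dCTD replicate 2 (rank 40964). Within the gene, chr15:52780019-52781185, 9.15 kb past the start, had folds of 4.95 and 5.45 (ranks 21488 and 41180) and 4.09 in FOXA2dCTD replicate 2 (rank 40964). Downstream, chr15:52731040-52731708, at 58.6 kb, had folds of 4.64 and 6.14 (ranks 25522 and 32169) and again 4.09 in FOXA2dCTD replicate 2 (rank 40964). At all 3 sites the FOXA2dCTD sample had the lowest fold of the samples with a peak, but a fold is relative to the background of its own library and ranks no library above another. None had a called SOX2-set entry.

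SOX2 gained 4 of 6 tested sites (66.7%, 22.3 to 95.7%) and the fusion 5 (83.3%, 35.9 to 99.6%), beside 33.9% and 43.7% over the genome. Both intervals held the genome-wide share. The wild type list called no site in this window. By the rule, no site could be lost there and every tested site was a gain with at least 1 construct. With the promoter, both gained chr15:52735266-52735843, at 54.5 kb downstream, with rank 49705 for SOX2, 54967 for the fusion and 98055 in FOXA2dCTD replicate 2. Both also gained chr15:52742063-52742883, at 47.5 kb downstream, with rank 58322 for SOX2, 55042 for the fusion and 108084 in full-length replicate 1. At these sites the wild type entry missed the threshold, with an IDR of 0.268 at the former and 0.0633 at the latter.

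Another 3 sites at ONECUT1 were called in a single list. SOX2 alone gained chr15:52813535-52814425, 23.2 kb upstream, at rank 35900, where the fusion had an entry with an IDR of 0.341. The fusion alone gained chr15:52719852-52720439, 69.9 kb downstream, at rank 55201, where the SOX2 entry had an IDR of 0.0602. It also gained chr15:52705953-52706538, 83.8 kb downstream, at rank 54887, where no other list had an entry. The 16 sites not named here were called in 1 list at most, with folds of 2.21 to 4.09.

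CEBPA, a leucine-zipper factor that drives differentiation of hepatocytes and other cells, is a short gene (chr19:33299934-33302534) and had 11 sites, 8 with a FOXA2-set peak and 5 with a called SOX2-set entry. No FOXA2-set wild type and no full-length replicate 2 peak fell in its window. Its promoter was called in all 3 SOX2-set lists. The 250 bases before the annotated start (RefSeq, GRCh38.p14, minus strand, chr19:33302535-33302784) follow, because the called entries of 4 lists cover the start. The 300-base window has a GC content of 80.7%, the highest of the 7 member windows, and none of the motifs searched.
CEBPA start: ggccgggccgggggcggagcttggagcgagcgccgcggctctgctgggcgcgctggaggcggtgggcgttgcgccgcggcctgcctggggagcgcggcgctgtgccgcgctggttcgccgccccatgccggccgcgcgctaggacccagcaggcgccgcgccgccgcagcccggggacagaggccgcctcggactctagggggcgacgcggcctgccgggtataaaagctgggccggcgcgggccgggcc

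The site over this start, chr19:33301903-33303080, also lies at a start of CEBPA-DT, the transcript on the other side of the promoter. It was called in the SOX2-set wild type at rank 21511, with SOX2 at rank 33313, with the fusion at rank 55784 and in FOXA2dCTD replicate 2 with a fold of 4.4 and rank 35049. The other 5 FOXA2-set samples had no peak there. A second site called in all 3 SOX2-set lists, chr19:33290848-33291583, 10951 bases downstream, had rank 12386 in the wild type, 62800 with SOX2 and 70354 with the fusion.

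The single FOXA2 gain at CEBPA lay 36.6 kb upstream, at chr19:33339176-33340127. FOXA2dCTD gave folds of 4.34 and 4.09 (ranks 23946 and 40964), and full-length replicate 1 gave 4.97 (rank 19765), while replicate 2 had no peak. The SOX2-set wild type called the same site at rank 31821 and the fusion at rank 74065, and the SOX2 entry failed at an IDR of 0.524, which counted as lost. Downstream, chr19:33281770-33282699, at 19.8 kb, was called in that wild type alone (rank 47203) and counted as lost with both constructs. SOX2 gained chr19:33273754-33274626, at 27.9 kb downstream, at rank 63663, where full-length replicate 1 had rank 69496 and FOXA2dCTD replicate 2 rank 50585. The wild type entry there failed at an IDR of 0.319. The 6 other sites were called in at most 1 list.

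PROX1, a homeobox factor of the developing liver and of lymphatic vessels, had 29 sites, 13 with a FOXA2-set peak and 11 with a called SOX2-set entry. Most of its tested sites were gained in the SOX2 set, 7 of 11 with SOX2 (63.6%, 30.8 to 89.1%) and 6 of 11 with the fusion (54.5%, 23.4 to 83.3%), although both intervals held the genome-wide shares of 33.9% and 43.7%. Full-length FOXA2 gained no PROX1 site and FOXA2dCTD 1 of 13. Distances are from the lower-coordinate end of the gene (chr1:213983151-214041510). A site over that end, chr1:213982643-213983285, was called in no list and had SOX2-set entries at an IDR of 0.526 in the wild type and 0.0841 with the fusion.

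One PROX1 site was called in every list. It was chr1:213987507-213989829, 4.36 kb into the gene, with ranks 1751 and 5178 in the wild types, 39609 and 11097 with full-length FOXA2, 14624 and 10334 with FOXA2dCTD, and 3491, 13434 and 9605 in the SOX2-set wild type, SOX2 and fusion lists. This was the best-ranked of the 158 sites in wild type replicate 1, in FOXA2dCTD replicate 2 and in the SOX2-set wild type. It was also the only PROX1 site with a peak in either FOXA2-set wild type.

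The FOXA2dCTD gain was chr1:214084292-214084938, 101 kb from the lower-coordinate end and past the gene. Its folds were 5.24 and 5.61 with FOXA2dCTD (ranks 12109 and 14099) and 5.52 in full-length replicate 1 (rank 12995), with no peak in full-length replicate 2 or in either wild type. The 3 samples with a peak had similar folds. Of the 13 FOXA2dCTD gains it was the only one still gained at equal numbers of peaks. No SOX2-set list had an entry there.

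Both SOX2 and the fusion gained 5 PROX1 sites. The strongest, chr1:214074124-214074945, 91.0 kb from the lower end, had −log10 p values of 16.4 and 16.2 and ranks 19563 and 12762, and no entry in the wild type. Next in the fusion list came chr1:214029660-214030730, at 46.5 kb within the gene, with values of 9.12 with SOX2 and 15.2 with the fusion and ranks 45105 and 15015. Neither had any FOXA2-set peak. At 78.3 kb, chr1:214061462-214062171 had ranks 43385 and 40439 and a weak peak in full-length replicate 1 (rank 108084). At 26.1 kb, chr1:214009241-214010208 had ranks 46654 and 61792 and no FOXA2-set peak. At 29.1 kb, chr1:214012264-214012756 had ranks 61618 and 45957, rank 34574 in FOXA2dCTD replicate 2, and a wild type entry at an IDR of 0.526. No wild type entry of any IDR was present at 4 of these 5.

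The other PROX1 changes were seen with 1 construct each or were losses. SOX2 alone gained chr1:213978173-213978730, 4.42 kb before the gene, at rank 64778, and chr1:214018737-214019338, 35.6 kb into it, at rank 54395. The fusion alone gained chr1:213994303-213994656, at 11.2 kb, at rank 49934, where the SOX2 entry had an IDR of 0.321. At chr1:213973000-213973825, 9.33 kb before the gene, the wild type was called at rank 21936 and neither construct was, with IDR values of 0.102 and 0.148. At chr1:214002084-214003076, at 18.9 kb, the wild type (rank 37391) and the fusion (rank 14043) were called, as was full-length replicate 1 (rank 69496). The SOX2 entry failed there, with −log10 p values of 24.7 and 2.96 in its inputs. The 16 PROX1 sites not named had folds of 2.76 to 4.34 and were called in at most 1 list.

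**Figure D3:**
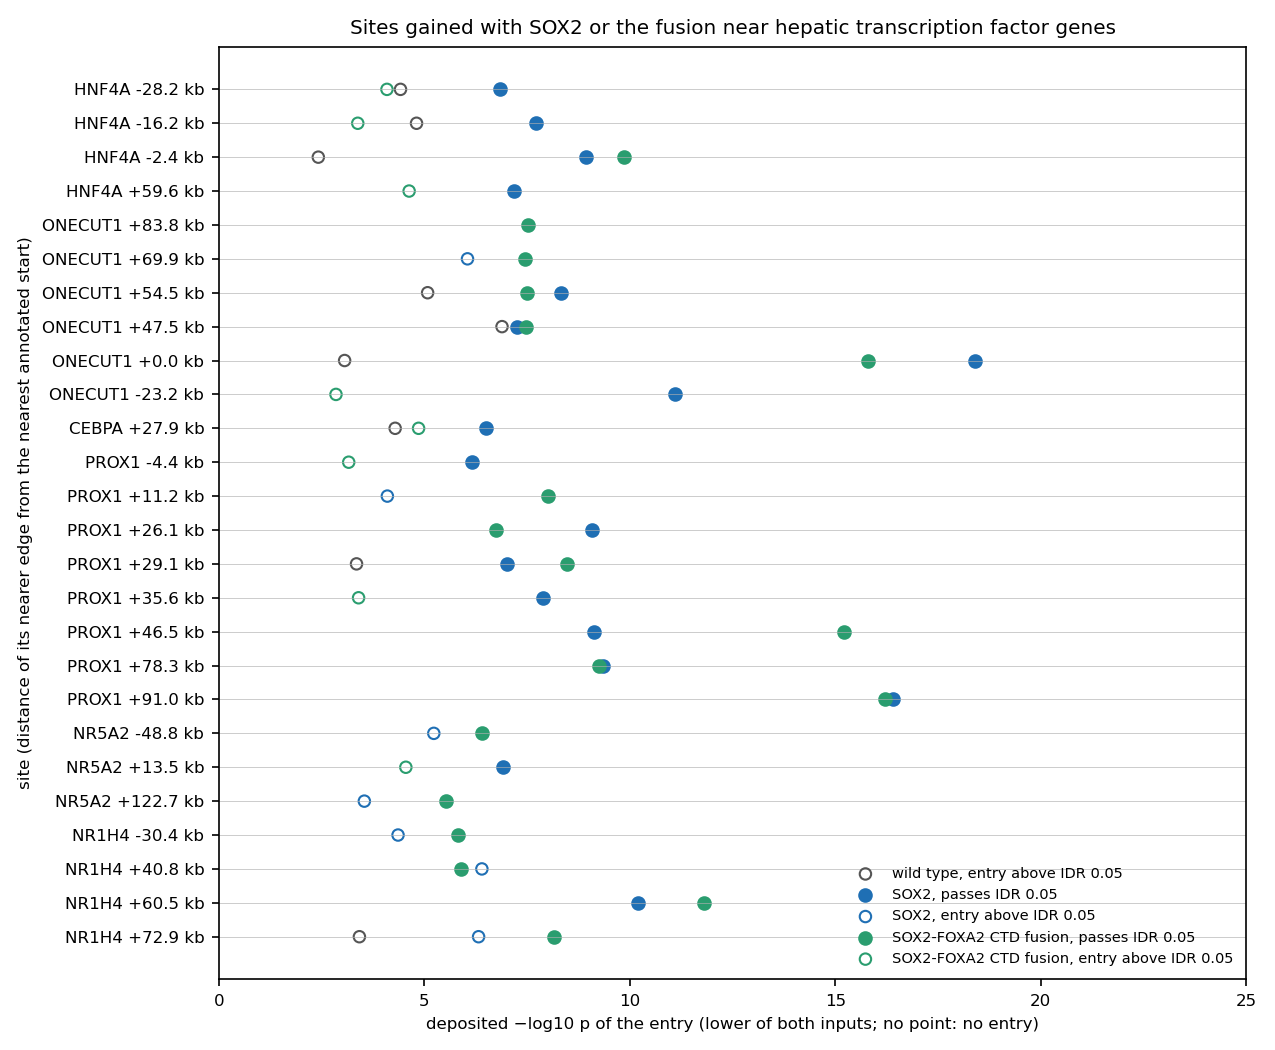
Deposited −log10 p (x axis; the lower of both inputs) at the 26 sites gained with SOX2 or the fusion (y axis, gene and signed distance from the nearest annotated start, for PROX1 from its lower-coordinate end) in the wild type (grey), SOX2 (blue) and fusion (green) lists. Filled points pass an IDR of 0.05 and open points do not; the ONECUT1 start (18.4 and 15.8) and the PROX1 site at 91.0 kb (16.4 and 16.2) reach the highest values with both constructs.

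NR5A2, a nuclear receptor of bile acid and cholesterol metabolism, has the longest window and the most sites, 38, of which 22 had a FOXA2-set peak and 9 a called SOX2-set entry. Full-length FOXA2 gained 4 of 22 sites (18.2%, 5.19 to 40.3%) and FOXA2dCTD 3 (13.6%, 2.91 to 34.9%), beside 9.39% and 9.32% over the genome. The gene (chr1:200027710-200177415) has 2 annotated starts. No list called a site within 1 kb of the first. The 250 bases before the second start (RefSeq, GRCh38.p14, plus strand, chr1:200042341-200042590) follow, because they hold the only forkhead match in the 7 member windows, GTAAACA in capitals, which is TGTTTAC on the other strand. It lies at bases 146 to 152.
NR5A2 second start: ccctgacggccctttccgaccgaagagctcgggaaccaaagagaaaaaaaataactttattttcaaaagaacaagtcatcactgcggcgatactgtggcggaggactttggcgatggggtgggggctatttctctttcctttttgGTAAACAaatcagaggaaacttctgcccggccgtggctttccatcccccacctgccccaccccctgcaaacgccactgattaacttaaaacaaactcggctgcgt

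Motifs were searched on both strands of the 300-base windows. Over all 34789 windows TGTTTAC was present in 3.42%, TATTTAC in 2.68% and either in 5.97%, beside 1 of 7 member windows. For SOX, ACAATGG was present in 3.16%, ACAAAGG in 5.34% and either in 8.26%, beside 0 of 7, and the AP-1 motif TGANTCA in 7.69%, beside 2 of 7, the first NR5A2 start and the second HNF4A start. A match is a run of letters and was not tied to binding. No called peak of any list overlapped the window with the forkhead letters. Just past the start, chr1:200042976-200043294, at 385 bases, was called in FOXA2dCTD replicate 2 alone, with a fold of 4.09 and rank 40964, and chr1:200042598-200042912, at 7 bases, had a wild type entry with an IDR of 0.526.

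The NR5A2 site called in all 4 FOXA2 construct samples and in neither FOXA2-set wild type was chr1:200021535-200022411, 5.3 kb before the first start. Its fold was 4.76 and 6.82 with full-length FOXA2 (ranks 22064 and 25257) and 3.66 and 5.21 with FOXA2dCTD (ranks 41454 and 18232). No wild type of either set and no SOX2-set list had an entry there. The site chr1:200038856-200040288, 2.3 kb before the second start, had folds of 5.56 and 5.45 with full-length FOXA2 (ranks 9557 and 41180) and 4.21 in FOXA2dCTD replicate 2 (rank 37981). It was called in the SOX2-set wild type (rank 39281) and with the fusion (rank 68453), and SOX2 failed at an IDR of 0.113, which counted as lost. The former site thus had no entry in any wild type list, and the latter had a called entry in the SOX2-set wild type.

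Deeper in the gene, chr1:200130717-200131091, 88.1 kb past the second start, had folds of 3.25 and 7.5 with full-length FOXA2 (ranks 67688 and 19920) and 3.68 in FOXA2dCTD replicate 2 (rank 58156). At 90.7 kb, chr1:200133334-200133851 had folds of 3.85 and 4.43 (ranks 41958 and 54505) and 3.47 in FOXA2dCTD replicate 1 (rank 46970). FOXA2dCTD gained chr1:200096386-200096760, at 53.8 kb, with folds of 4.34 and 2.92 (ranks 23946 and 98055), where full-length replicate 1 had 2.76 (rank 108084). These 3 sites had no called SOX2-set entry. Past the gene, chr1:200180663-200181325, at 138 kb, was the other FOXA2dCTD gain without a full-length peak, with folds of 3.47 and 2.92 (ranks 46970 and 98055), and all 3 SOX2-set lists had entries above the threshold, at IDR values of 0.127, 0.524 and 0.122.

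The NR5A2 site of both FOXA2-set wild types was chr1:200075584-200076913, 33.0 kb past the second start. Its ranks were 19581 and 13454 in the wild types, 3225 and 17699 with full-length FOXA2, 27891 and 62426 with FOXA2dCTD, 6792 in the SOX2-set wild type and 9736 with the fusion. Only SOX2 was not called, with a −log10 p of 5.83 in one input and 25.4 in the other, so the loss is not shared by both inputs. At chr1:200150522-200151329, 108 kb past the second start, the 3 SOX2-set lists were called at ranks 27580, 27758 and 19576, full-length replicate 1 at rank 34659 and FOXA2dCTD replicate 2 at rank 24249.

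In the SOX2 set, SOX2 lost 4 and gained 1 of 9 tested NR5A2 sites, and the fusion lost 2 and gained 2. With SOX2 the shares were 44.4% lost (13.7 to 78.8%) and 11.1% gained (0.281 to 48.2%), beside 16.9% and 33.9% over the genome. With the fusion they were 22.2% each, beside 17.0% and 43.7%. The 95% interval of each of these shares held the genome-wide share. The losses besides those given were chr1:200139205-200140158, at 96.6 kb, with rank 42727 in the wild type and 58278 with the fusion. Another, chr1:200206319-200207144, at 164 kb, had rank 37360 in the wild type and neither construct was called. The fusion did not call chr1:200184152-200184689, at 142 kb, which had rank 25462 in the wild type and 53988 with SOX2. SOX2 gained chr1:200056052-200056451, at 13.5 kb, at rank 62036. The fusion gained chr1:199978396-199978924, 48.8 kb before the first start, at rank 66813, and chr1:200165244-200165823, at 123 kb past the second, at rank 74065. All 3 gains stood in the last part of their lists. The 22 sites of NR5A2 not named had folds of 2.48 to 3.85.

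NR1H4, the bile acid receptor that restrains bile acid synthesis, had 22 sites, 14 with a FOXA2-set peak and 7 with a called SOX2-set entry, and the highest share of FOXA2 gains of the 6 genes. Of its 14 sites with a FOXA2-set peak, each FOXA2 construct gained 5, 35.7% (12.8 to 64.9%), and 4 were gained with both. The lower bound lies above the genome-wide 9.39% and 9.32%, in 1 of the 6 genes examined. Neighbouring sites of a locus may not be independent, and both shares use the same wild types. None of these NR1H4 gains was kept at equal numbers of peaks. At the common −log10 p threshold some of the full-length gains of NR1H4 were kept and none of its FOXA2dCTD gains. Its annotated start in the reference table lies inside the gene (chr12:100473866-100564414), and distances are from it. At the lower-coordinate end of the gene, chr12:100473210-100474190 was called in wild type replicate 1 (rank 9749) and in both FOXA2dCTD samples (ranks 76582 and 58156), and had failing entries in 2 SOX2-set lists.

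All 4 FOXA2 construct samples, and neither wild type of that set, had a peak at 4 NR1H4 sites. At 33.4 kb upstream of the start, chr12:100469499-100470000 had folds of 4.42 and 8.18 with full-length FOXA2 (ranks 29816 and 15725) and 3.02 and 5.0 with FOXA2dCTD (ranks 66499 and 22901). Inside the gene at 13.7 kb before the start, chr12:100489044-100489616 had folds of 3.31 and 6.82 (ranks 69496 and 25257) and 3.28 and 3.51 (ranks 55753 and 62426). No SOX2-set list had an entry at either. At 20.2 kb past the start, chr12:100523522-100524238 had folds of 5.52 and 7.5 (ranks 12995 and 19920) and 5.56 and 3.51 (ranks 9539 and 62426), and its one SOX2-set entry, with the fusion, had an IDR of 0.264. Farthest upstream, at 75.7 kb, chr12:100426820-100427668 had folds of 2.76 and 5.8 (ranks 108084 and 36396) and 3.42 and 5.38 (ranks 52405 and 16992). That site was called in all SOX2-set lists, at rank 6921 in the wild type, 38283 with SOX2 and 39523 with the fusion. Thus 3 of the 4 had no called entry in the second wild type, and the other was in the top 14.4% of its list.

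The fifth full-length gain lay near the NR1H4 start, chr12:100504189-100504822, 829 bases past it. It had folds of 5.21 and 4.43 with full-length FOXA2 (ranks 16302 and 54505) and 3.51 in FOXA2dCTD replicate 2 (rank 62426), and no SOX2-set entry. The peaks of the 2 full-length samples overlapped by 3 bases only. The fifth FOXA2dCTD gain, chr12:100567068-100567593, at 63.7 kb, had folds of 3.9 and 3.8 (ranks 33368 and 55400) and 2.76 in full-length replicate 1 (rank 108084). In both cases the other construct had a peak in 1 of its samples.

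Beyond the gene end, 2 sites within GAS2L3 were each called in at least 6 of the 9 lists. The site chr12:100573189-100574632, at 69.8 kb, had rank 9658 in wild type replicate 1, 42562 and 32169 with full-length FOXA2, 10775 and 11265 with FOXA2dCTD, 8066 in the SOX2-set wild type and 4997 with the fusion. SOX2 was not called, with inputs at 28.8 and 4.53, which counted as lost. The site chr12:100576308-100577418, at 72.9 kb, had rank 20827 in wild type replicate 2, 15334 and 2817 with full-length FOXA2, 4126 and 11772 with FOXA2dCTD, and 47873 with the fusion, which counted as gained. Each of these sites was called in 1 of the FOXA2-set wild types.

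The fusion gained 4 of 7 tested NR1H4 sites (57.1%, 18.4 to 90.1%) and SOX2 1 (14.3%, 0.361 to 57.9%), beside 43.7% and 33.9% over the genome. Both gained chr12:100563897-100564761, at 60.5 kb over the gene end, with rank 39311 for SOX2 and 26288 for the fusion and no wild type entry. The fusion alone gained chr12:100472360-100472940, 30.4 kb upstream, at rank 73085, and chr12:100544169-100544674, at 40.8 kb, at rank 70354. Both were near the IDR threshold, at 0.0494 and 0.0492. At chr12:100554584-100555160, at 51.2 kb, the wild type (rank 37391) and SOX2 (rank 58947) were called and the fusion was not, with an IDR of 0.193, while full-length replicate 1 had rank 69496. The other 9 NR1H4 sites had folds of 2.76 to 2.92 where a FOXA2-set peak was present.

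**Figure D4:**
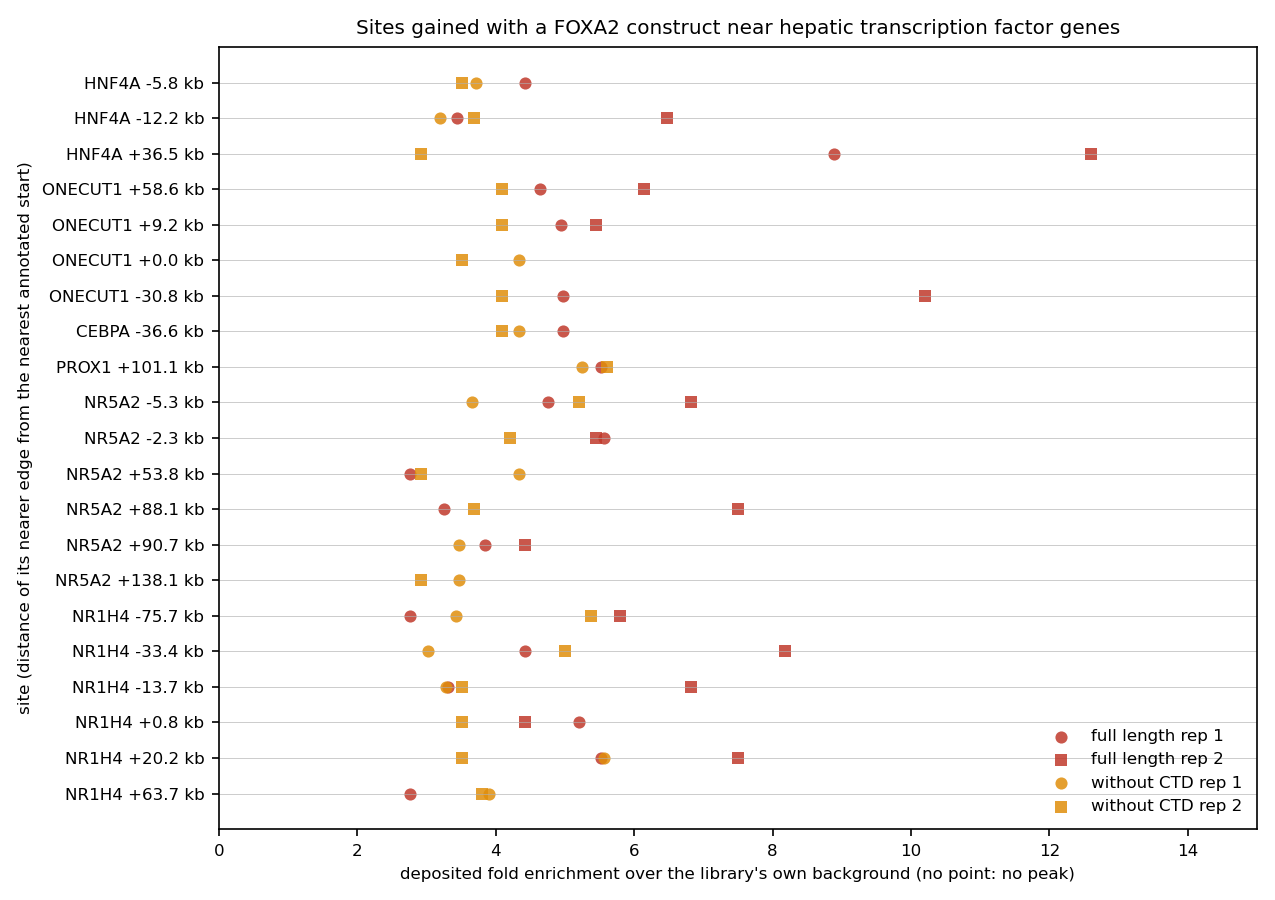
Deposited fold enrichment (x axis) at the 21 sites gained with a FOXA2 construct (y axis, gene and signed distance from the nearest annotated start, for PROX1 from its lower-coordinate end) in the full-length (red) and FOXA2dCTD (orange) samples, circles for replicate 1 and squares for replicate 2. No wild type of the set has a peak at these sites; the HNF4A site at 36.5 kb reaches 8.89 and 12.6 with full-length FOXA2 and 2.92 in 1 FOXA2dCTD sample.

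Of the 21 sites gained with either FOXA2 construct, 2 lay within 1 kb of an annotated start of a member, the NR1H4 site at 829 bases and the ONECUT1 promoter, which is 9.52% beside 5.38% of all 93 sites with a FOXA2-set peak. In the gene body lay 8 of the 14 full-length gains, 57.1% beside 46.2% of the 93. Of 7 annotated starts of 5 members (PROX1 has none in the table), 1 and 0 were within 1 kb of a peak in the FOXA2-set wild types, 1 and 0 with full-length FOXA2, 1 and 3 with FOXA2dCTD, and 1, 2 and 2 in the SOX2-set lists. Over all protein-coding genes the shares were 34.7% and 33.3%, 61.3% and 53.6%, 47.8% and 61.9%, and 53.5%, 55.9% and 50.7%, while the highest member share was 42.9%, in FOXA2dCTD replicate 2.

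The density of peaks across the 6 windows was set against the density over the genome. The ratio was 0.901 and 0.833 in the FOXA2-set wild types, 1.06 and 1.44 with full-length FOXA2, 1.1 and 1.16 with FOXA2dCTD, and 1.3, 1.32 and 1.3 in the SOX2-set wild type, SOX2 and fusion lists. The median window of all protein-coding genes had ratios of 1.41 and 1.08, 1.18 and 1.33, 1.22 and 1.19, and 1.49, 1.29 and 1.17. Among the members, HNF4A had the highest ratio in full-length replicate 2, 2.92, which is the 88.5th percentile of such windows. CEBPA had 0 there, and ONECUT1 had 0 in all 3 wild type lists. PROX1 was at 2.33 with SOX2 and 2.03 with the fusion, the 88.0th and 87.5th percentiles, and at 1.19 in their wild type. NR5A2 was below the genome with SOX2, at 0.555.

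A further 12 hepatic transcription factor genes were counted by the same rule (HHEX, GATA4, GATA6, TBX3, ONECUT2, NR0B2, NR1I2, NR1I3, PPARA, CEBPB, NR1H3 and NR2F2), giving 231 sites. Full-length FOXA2 gained 13 of 160 (8.12%, 4.4 to 13.5%) and FOXA2dCTD 12 (7.5%, 3.94 to 12.7%), with no loss. TBX3 had the most full-length gains of the 12, 3 of 14 sites. Of the 160, 5 (3.12%, 1.02 to 7.14%) were gained with full-length FOXA2 and had no FOXA2dCTD peak, where the 6 members had 0. SOX2 gained 17 of 81 (21.0%, 12.7 to 31.5%) and the fusion 26 (32.1%, 22.2 to 43.4%). Each lost 18 (22.2%, 13.7 to 32.8%), beside 16.9% and 17.0% over the genome. Both gained shares of the 12 genes were below the genome-wide 33.9% and 43.7%, which lay outside the interval in each case. The intervals of the 6 members held both genome-wide shares. They also overlapped those of the 12 genes, but overlap of intervals is not a test, and a difference between these gene lists was not tested. NR1I2, the pregnane X receptor, had the most SOX2-set gains of the 12, with 5 of 8 sites for each construct.

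Genes with the most similar profile of peak density over the 9 lists were found for each member, by Pearson r of log2(ratio + 0.25) over all windows of protein-coding genes with at least 10 peaks. They were ANKRD13B (r = 0.966) and GIT1 (0.941) for HNF4A, OR2T27 (0.992) and LIN28B (0.991) for ONECUT1, and AMBP (0.99) and ZSCAN5C (0.989) for CEBPA. For PROX1 they were MRPL50 (0.929) and HABP2 (0.913), for NR5A2 ZNF677 (0.958) and SPINT3 (0.956), and for NR1H4 MAP4K5 (0.944). Each is among the 2 highest of 19092 to 19098 values over 9 lists that share wild types and differ in their number of peaks, and is given as a description only.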

How the data were processed

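ATAC-seq was done on 12 samples of U2OS cells in 6 groups of 2. The sample titles label the 2 samples of a group as biological replicates. Whether these were separate cultures or lines is not stated in the sources used here. Per the submitters' processing notes, FastQC 0.10.1, Trim Galore, Bowtie2 2.4.4, SAMtools 0.1.18, MACS2 and deepTools 2.4.1 were used with hg38; their settings are not given in the sources used here. The FOXA2-set lists give, per peak, the authors' score, fold enrichment (a ratio over the background of the same library), −log10 p and −log10 q. The SOX2-set lists, deposited 1 per group, give the authors' score, the −log10 p of an entry and of each of its inputs, and its IDR; which samples the inputs were is not named. Read depth is unknown and limits every absent peak.

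Lists were read with Python 3.11.15, numpy 2.4.6 and pandas 2.3.3; intervals were computed with scipy 1.17.1 (exact Clopper-Pearson, 95%) and figures drawn with matplotlib 3.10.9. All entries on chromosomes 1 to 22 and X that shared at least 1 base were merged into sites, and each site was called or not in each list. The counting was tested on simulated lists. Named sites are those within 1 kb of an annotated start of a member, called in at least 3 of 9 lists, or gained or lost; the other 90 of 158 are given by counts and ranges. The members, gene lists and rules were chosen with earlier results of these data known. The replicate overlap of peaks at gained sites was examined after the calls were seen. Gene spans came from the RefSeq table of GRCh38.p14, as did promoter windows of 300 bases, 250 before and 50 after a start. Motifs at the sites themselves were not searched, since no genome sequence was used here. Alternatives were equal numbers of peaks, common or stricter thresholds, 50% cover, merging within a set, each library left out, and lists with and lists without mitochondrial peaks taken apart. Of the list of other hepatic factors 2 genes, and 1 gene with a similar profile, are not reported here.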

Additional observations from a re-analysis of the deposited data

How the results depend on the processing

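Counts of gained and lost sites near the 6 genes changed with most of the settings. At equal numbers of peaks, full-length FOXA2 gained 2 sites and FOXA2dCTD gained 2 and lost 1, while 1 site was gained with full-length FOXA2 only and 0 with FOXA2dCTD only ("only" meaning no peak with the other construct). At a common −log10 p of at least 5.43 these gains were 9 and 1, with 6 full-length only and 0 FOXA2dCTD only. With 50% of the site covered, full-length FOXA2 gained 6, with 2 full-length only and 1 FOXA2dCTD only. With regions merged within the FOXA2 set, 1 site was full-length only and 1 FOXA2dCTD only. Among lists with mitochondrial peaks, full-length FOXA2 gained 53 and lost 2, and FOXA2dCTD lost 1. Leaving out 1 library at a time gave 15 to 49 full-length gains, 0 to 2 full-length losses, 15 to 46 FOXA2dCTD gains, 0 to 2 FOXA2dCTD losses, 0 to 26 full-length-only gains and 2 to 24 FOXA2dCTD-only gains. The 24 came without FOXA2dCTD replicate 1, against 8 without FOXA2dCTD replicate 2 and 7 without full-length replicate 1, and the full-length losses of 2 came without wild type replicate 2. With all SOX2-set entries whatever their IDR, SOX2 gained 34 and lost 18, and the fusion gained 42 and lost 14. At an IDR of at most 0.01, SOX2 gained 8 and lost 6 and the fusion gained 10. At equal numbers of entries, SOX2 gained 8, and the fusion gained 8 and lost 11. With an absent call taken as no entry at any IDR, SOX2 gained 10 and lost 2 and the fusion lost 0. The cause was not tested, except that fewer peaks or libraries enter by construction where lists are shortened or left out. No paired analysis was possible because the calls come from no fitted model, and requiring a call in the construct and none in the same-numbered wild type in both pairs is the rule already used, without the cross comparison. Unknown depth limits every absent peak.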
